A study of Bos taurus with 10 samples.

Results

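The genes described here encode heat shock proteins and the chaperones that help other proteins fold. They were chosen by name: every symbol that starts with HSP followed by A, B, D, E, H or 9, with DNAJA, DNAJB or DNAJC and a number, or with CCT and a digit of 2 to 8, together with TCP1 and HSF1. This gave 85 genes among the 28700 whose symbol stands on 1 line of the expression table. They comprised 13 HSPA, 3 HSP90, 10 HSPB, 45 DNAJ and 10 chaperonin genes, and HSPD1, HSPE1, HSPH1 and HSF1. The samples were bovine embryos, each library made from poly(A) RNA of embryos whose zygotes had been injected with siRNA. KD embryos received siRNA against H1FOO, the linker histone that oocytes make in place of the somatic ones, and NC embryos received a negative control siRNA, so every group was injected. The groups were KD morulae (3 libraries, day 5.5 after insemination), NC morulae (3 libraries, day 5.5), KD 8/16-cell embryos (2 libraries, day 4) and NC 8/16-cell embryos (2 libraries, day 4). The labels do not give the number of embryos per library, their breed or their sex, nor whether replicates came from separate collections, and the p-values below measure the spread between these libraries alone.

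Chaperones bind unfolded stretches of other proteins and keep them from clumping until they reach their shape. HSP70 proteins (the HSPA genes) do so in cycles of ATP use that J proteins (the DNAJ genes) start and exchange factors end, HSP90 proteins act later on kinases, receptors and other clients, and the barrel-shaped chaperonins enclose a client, which is actin or tubulin for much of the cytosolic chaperonin's work. Small heat shock proteins hold unfolded proteins without ATP, mitochondria and the endoplasmic reticulum have sets of their own, and HSF1 is the transcription factor that switches on the inducible genes under heat or other stress. In mouse embryos, inducible HSP70 is known as one of the genes transcribed when the embryonic genome is first switched on.

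H1FOO stood at 0.0610, 0.191 and 0.251 FPKM in KD morulae, against 0.294, 1.05 and 2.17 FPKM in NC morulae, and at 0.649 and 0.0736 FPKM in KD 8/16-cell embryos, against 50.9 and 10.8 FPKM in NC 8/16-cell embryos. It was lower in each KD library than in each NC library of its stage. The log2 difference was -4.22 (SE 0.60) at the 8/16-cell stage and -0.80 (SE 0.49) at the morula stage, and neither passed the test across all genes (adjusted p = 0.104 and 0.374). With the replicate number as a block, H1FOO passed at the 8/16-cell stage (adjusted p = 0.0107), where the numbers are not shown to pair the libraries. Summed over genes, FPKM came to between 345464 and 669836 per library, with between 11103 and 11872 genes at 1 FPKM or more. The number of reads per library is unknown, and the lowest values put the relative depths between 0.71 and 1.44. That estimate is rough, since the most common ratio to NC 8/16-cell replicate 1 held only 5.73% to 15.1% of the low values compared. All 9 embryo markers looked for, POU5F1 and CDX2 among them, reached 1 FPKM in at least 1 library. They had a summed level of 500.0 to 861 FPKM in KD morulae and 767 to 1072 FPKM in NC morulae, most of it from POU5F1. The list moved both ways. CDX2 stood at 2.34, 1.89 and 1.23 FPKM in KD morulae, against 11.7, 6.13 and 9.68 FPKM in NC morulae. GATA3 and LIN28A were also lower in KD without overlap. NANOG was higher without overlap, at 25.4, 39.0 and 37.8 FPKM in KD, against 6.48, 14.4 and 18.9 FPKM in NC morulae. The other embryo markers overlapped. RN18S1, a gene of ribosomal RNA, was measured at 9053, 8553 and 11580.0 FPKM in KD morulae, against 2704, 2983 and 8611 FPKM in NC morulae. It was the higher in KD in each pair and passed with the block alone (difference 1.23, SE 0.50, limma adjusted p = 0.194 without and 0.0386 with the block). In bulk embryos, fewer cells of a type and less RNA per cell cannot be told apart.

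Of the 85 genes, 15 averaged at least 100 FPKM over the 10 libraries, 30 averaged 10 to 100 FPKM, 26 averaged 1 to 10 FPKM and 14 averaged less than 1 FPKM. FPKM is scaled by transcript length, so these levels can be set beside each other. HSPA8, the constitutive cytosolic HSP70, was the highest at a mean of 991 FPKM and supplied 15.5% to 26.9% of the summed level of the 85 genes in a library. After it came HSPB1, a small heat shock protein, at 360.1 FPKM, HSP90AA1, the inducible cytosolic HSP90, at 336 FPKM, HSPE1, the lid of the mitochondrial chaperonin, at 237 FPKM and the chaperonin subunit CCT3 at 237 FPKM. The mean of HSPB1 rests on the morulae, at 473 ± 224 FPKM in KD and 626 ± 235 FPKM in NC morulae (SD, n = 3 each), against means of 80.4 FPKM in KD and 70.9 FPKM in NC 8/16-cell embryos. At the other end, DNAJC5B was listed at 0 in every library, and DNAJC5G and DNAJB7 averaged 0.0286 and 0.0548 FPKM. Together the 85 genes held 1.25% to 1.53% of the summed FPKM in morulae and 0.995% to 1.12% in 8/16-cell embryos, leaving out MIR2887-1, MIR2887-2 and RN18S1. Their sum was 5616, 4839 and 5156 FPKM in KD morulae and 6272, 5223 and 6242 FPKM in NC morulae (two-sided exact permutation p = 0.2 on 3 against 3 libraries taken as unpaired, where the smallest possible p is 0.1), lower in KD in each of the 3 pairs.

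**Figure D1:**
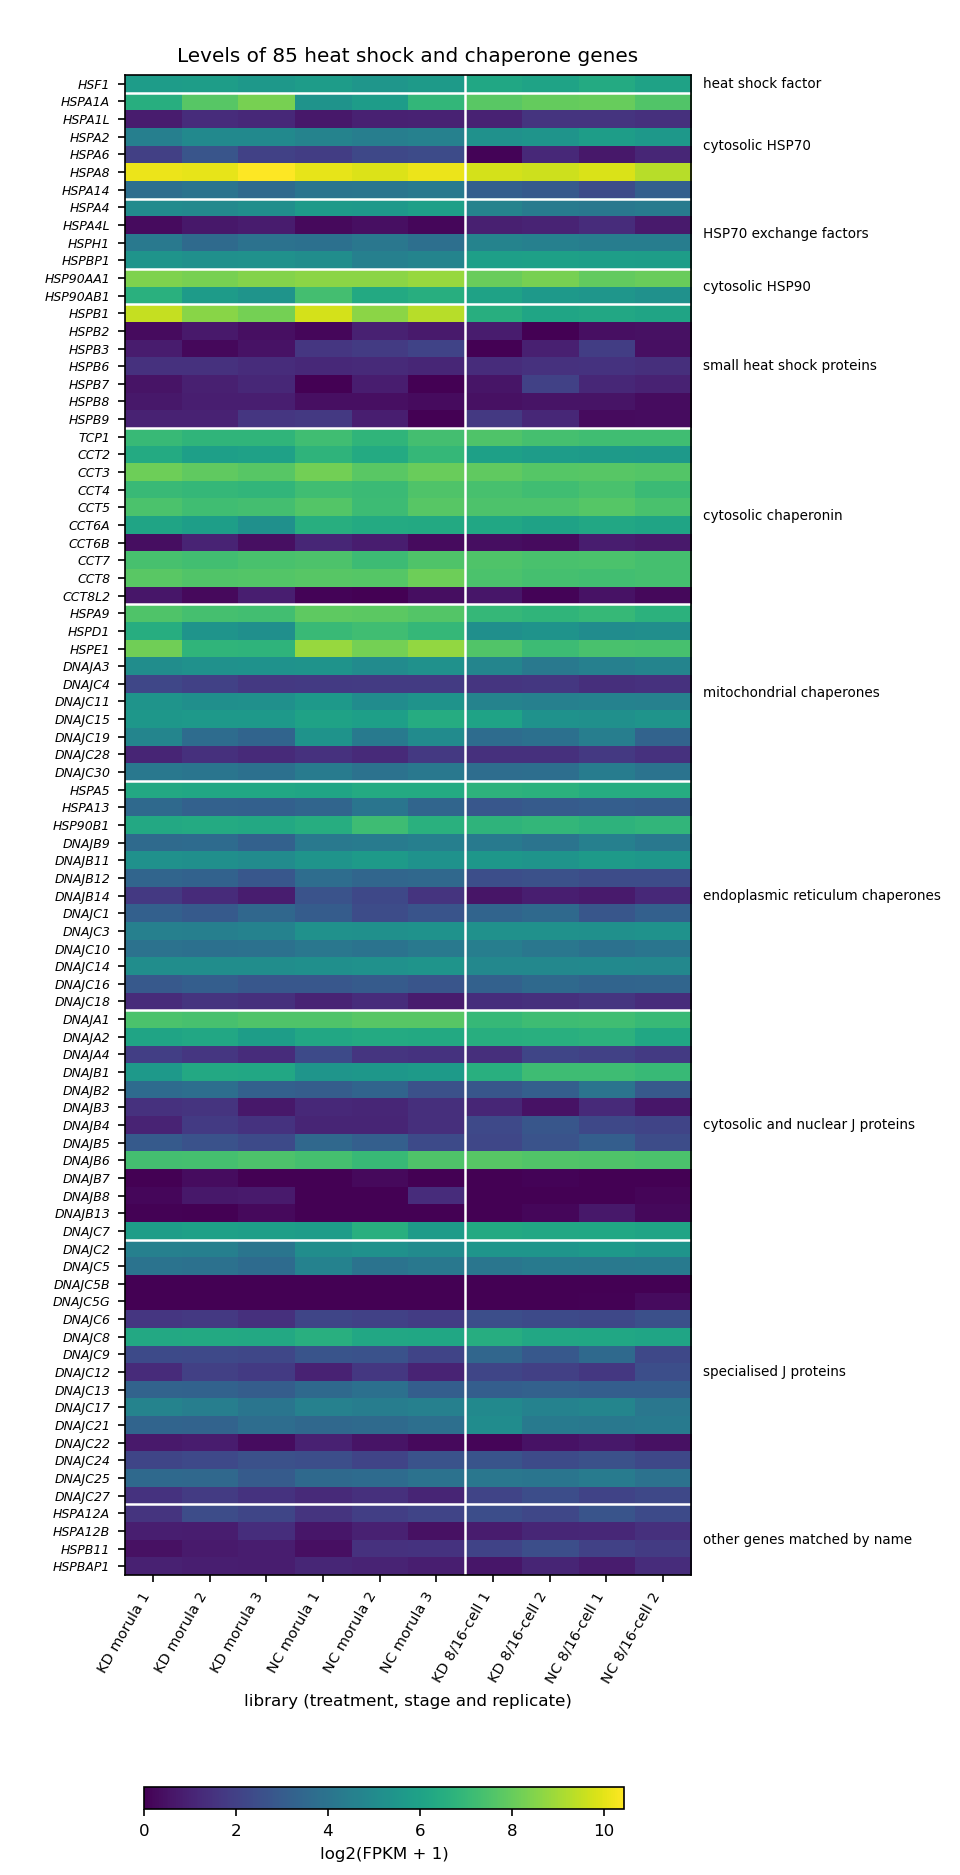
Levels of the 85 genes (rows, grouped by role) in the 10 libraries (columns, the 6 morula libraries left of the white line and the 4 8/16-cell libraries right of it), as log2(FPKM + 1). HSPA8 is the brightest row throughout, HSPB1 is brighter in the morula columns, and the 14 genes that averaged less than 1 FPKM form the dark rows.

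The 71 genes that averaged at least 1 FPKM were tested, and the other 14 were not: CCT6B, CCT8L2, DNAJB7, DNAJB8, DNAJB13, DNAJC5B, DNAJC5G, DNAJC22, HSPA4L, HSPA12B, HSPB2, HSPB7, HSPB8 and HSPBAP1. The tested gene nearest that limit was HSPB9, at a mean of 1.14 FPKM, and the untested one nearest to it was HSPA12B, at 0.99 FPKM. Differences are given on the scale of log2(FPKM + 1) with their standard error (SE), which understates the change of genes at low levels. A gene passed at a limma adjusted p under 0.05, adjusted over all 11761 genes tested. At the morula stage the replicate numbers were taken to pair KD with NC libraries, since same-numbered libraries deviated alike from their group means (r = 0.312 to 0.37). No label states this pairing, and it was inferred from the same values that the fits use. The p of a fit with that number as a block is called the paired adjusted p. Each SE printed, also beside a paired adjusted p, is that of the fit without the block.

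The knockdown was compared with the control first among the morulae. DNAJC3, an endoplasmic reticulum J protein that also holds back the stress kinases PERK and PKR, fell in KD morulae and was the 1 chaperone gene of 71 that passed, while none rose. Across all genes 0.697% passed (0.145% higher and 0.553% lower). With the replicate block, 10 chaperone genes fell (DNAJC3, HSPD1, HSPE1, DNAJC2, DNAJB9, HSPA4, HSP90AB1, DNAJB14, CCT2 and CCT6A) and 2 rose (HSPA1A and HSPBP1), against 8% of all genes lower and 3.89% higher in the same fit. The call of DNAJC3 without the block was lost when any of 9 libraries was left out, and without KD morula replicate 1 there were 6 calls (4.48% of all genes passed), HSPA1A higher and DNAJC3, HSPD1, HSPE1, DNAJB9 and DNAJC2 lower. The 12 paired calls came down to 0 without pair 1, to 3 without pair 2 (HSPA1A, DNAJC3 and HSP90AB1) and to 0 without pair 3, while the calls over all genes went down to 0, 393 and 18 of 11761.

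Counted without a test, the KD and NC morulae did not overlap for 24 of the 71 genes, 21 of which were lower and 3 higher in KD (HSPBP1, DNAJC27 and HSPB6). Over all genes tested, 15.3% were lower and 8.44% higher without overlap. The difference was above 0 for 22 of the 71 genes, against 42% of all genes. Its median was -0.17 for the 71 genes and -0.08 for all genes. In each of the 3 same-numbered pairs of libraries, 30 of the 71 genes were lower in KD and 13 were higher, against 32% and 19.9% of all genes. Markers of other cells were not tested, and the ranges of their summed levels overlapped between KD and NC morulae. The 15 cumulus and granulosa markers summed to 19.6, 46.2 and 90.4 FPKM in KD morulae, against 9.60, 24.7 and 24.5 FPKM in NC morulae. The sum was the higher in KD in each same-numbered pair, but single markers moved both ways. VIM stood at 3.44, 11.0 and 43.3 FPKM in KD morulae, against 0.346, 5.40 and 5.42 FPKM in NC morulae. CYP19A1 was lower in KD without overlap, at 0.260, 0.143 and 0.0202 FPKM, against 1.415, 1.436 and 0.689 FPKM in NC morulae. COL1A2 and STAR also had lower KD means. FSHR was at 0 in every library, and 13 of the 15 reached 1 FPKM in at least 1. The 10 oocyte markers summed to 16.7 to 32.4 FPKM in KD and 15.3 to 25.0 FPKM in NC morulae, and the 10 sperm markers to 9.25 to 15.1 and 7.75 to 12.2 FPKM. The 6 blood markers summed to 137 to 244 FPKM in KD and 109 to 160.3 FPKM in NC morulae, again higher in KD in each pair. Nearly all of that sum was HBA, at 164, 133 and 239 FPKM in KD and 157, 106 and 154 FPKM in NC morulae. HBB was at 0 in every morula library, and 3 of the 6 blood markers reached 1 FPKM in at least 1 library. The part of these markers of other cells in the chaperone differences, and that of RN18S1, was not tested. RN18S1 was itself higher in KD in each pair, so a fit with it as a covariate cannot separate it from the knockdown. With RN18S1 as a covariate in the limma fit, 0 of the 71 genes and 0% of all genes passed. Unadjusted p-values were then under 0.05 for 12 of the 71 genes and 1242 of all genes, against 20 and 2491 without the covariate, and DNAJC3 differed by -0.80.

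**Figure D2:**
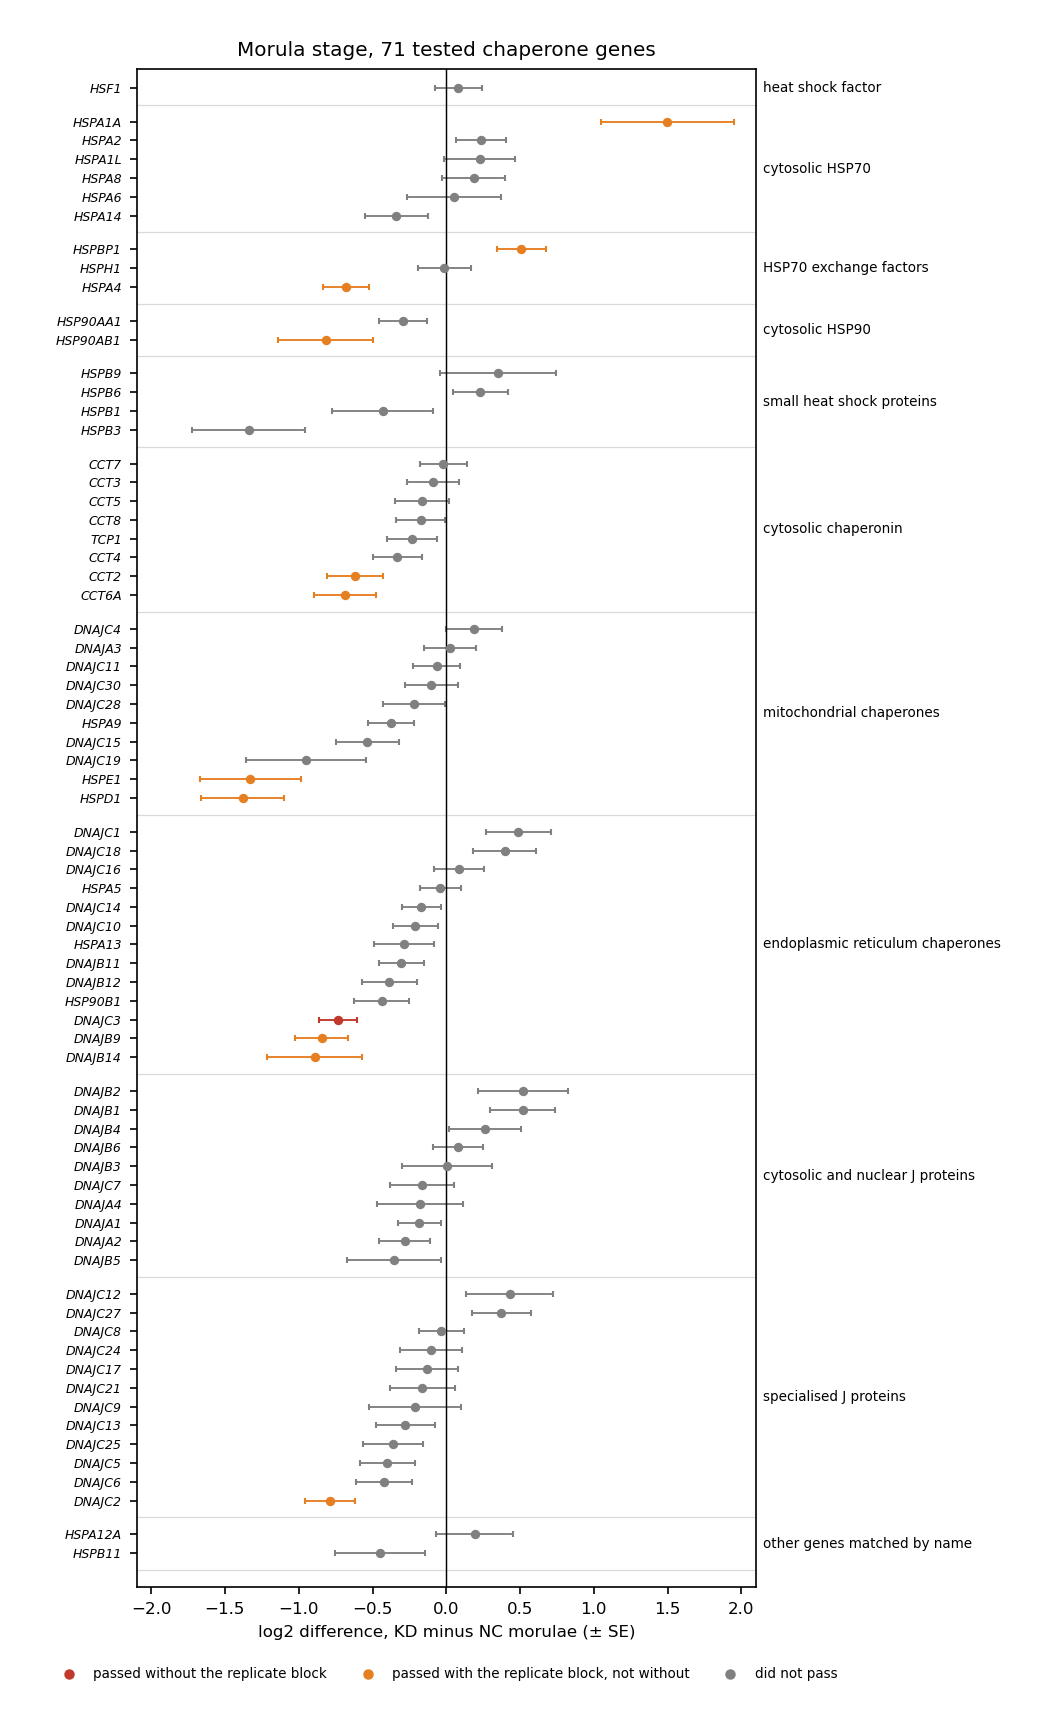
Difference between KD and NC morulae for the 71 tested genes (horizontal axis, log2 difference, KD minus NC, with bars of 1 SE), ordered by size within each role (vertical axis). DNAJC3 passed without the replicate block, 11 other genes passed with it, HSPA1A lies farthest to the right, and all 8 tested chaperonin subunits lie left of 0.

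Among the 13 tested chaperone genes of the endoplasmic reticulum, 10 were lower in KD morulae (9 under each other scaling of the libraries), 7 of them without overlap. Of all genes, 15.3% were lower without overlap and 42% had a difference above 0. DNAJC3 stood at 22.3, 22.0 and 23.5 FPKM in KD morulae, against 38.2, 37.2 and 39.4 FPKM in NC morulae. The KD morulae lay close to one another and well below the NC morulae (difference -0.74, SE 0.13, adjusted p = 0.0382, paired adjusted p = 0.0105). At the earlier stage it stood at 37.9 and 37.7 FPKM in KD 8/16-cell embryos, against 36.3 and 39.0 FPKM in NC 8/16-cell embryos, with a difference of 0.01 (SE 0.16). DNAJB9, a J protein made under endoplasmic reticulum stress that binds HSPA5, stood at 11.3, 11.6 and 8.56 FPKM in KD morulae, against 17.5, 19.4 and 21.9 FPKM in NC morulae. The groups did not overlap and the gene passed with the block alone (difference -0.84, SE 0.18, adjusted p = 0.0617, paired adjusted p = 0.0182). DNAJB9 in the earlier embryos stood at 18.8 and 15.3 FPKM in KD 8/16-cell embryos, against 22.1 and 17.3 FPKM in NC 8/16-cell embryos, ranges that overlap.

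HSPA5 (BiP), the HSP70 of the endoplasmic reticulum and the usual readout of its stress response, stood at 77.9, 73.9 and 73.3 FPKM in KD morulae, against 69.0, 81.7 and 81.4 FPKM in NC morulae. These ranges overlap (difference -0.04, SE 0.14, adjusted p = 0.895), unlike those of its partner J proteins DNAJC3 and DNAJB9. Earlier, HSPA5 stood at 106 and 99.8 FPKM in KD 8/16-cell embryos, against 86.3 and 86.2 FPKM in NC 8/16-cell embryos, higher in both KD libraries but without passing (difference 0.25, SE 0.17). HSP90B1 (GRP94), the HSP90 of the same compartment, stood at 77.8, 83.2 and 78.4 FPKM in KD morulae, against 89.6, 145 and 97.8 FPKM in NC morulae. The KD morulae were the lower ones and 1 NC morula stood far above the other 2 (difference -0.44, SE 0.19, adjusted p = 0.211). Earlier levels of HSP90B1 were 109.8 and 119 FPKM in KD 8/16-cell embryos, against 108 and 116 FPKM in NC 8/16-cell embryos.

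DNAJB14 and DNAJB12, J proteins anchored in the endoplasmic reticulum membrane, are close relatives. DNAJB14 stood at 2.28, 1.42 and 0.781 FPKM in KD morulae, against 5.33, 3.85 and 1.94 FPKM in NC morulae. The ranges overlap, and the gene passed with the block alone (difference -0.89, SE 0.32, adjusted p = 0.155, paired adjusted p = 0.029). DNAJB12 stood at 9.72, 8.62 and 6.21 FPKM in KD morulae, against 12.4, 9.76 and 10.5 FPKM in NC morulae, with the KD morulae below the NC ones (difference -0.39, SE 0.19, adjusted p = 0.268). DNAJB14 stood earlier at 0.513 and 0.820 FPKM in KD 8/16-cell embryos, against 0.703 and 1.32 FPKM in NC 8/16-cell embryos, and DNAJB12 at 4.64 and 5.05 FPKM in KD 8/16-cell embryos, against 4.39 and 4.30 FPKM in NC 8/16-cell embryos. Neither gene passed between the stages in KD embryos (0.54, SE 0.36, and 0.63, SE 0.21), and in NC embryos both rose, DNAJB14 by 1.17 (SE 0.36) and DNAJB12 by 1.15 (SE 0.21) (adjusted p = 0.0317 and 0.00328). The rise of DNAJB14 did not pass with no filter, with the compared groups alone or with RN18S1 as a covariate. Nor did it pass without NC morula replicate 1 or 2, while DNAJB12 passed in each of these settings. DNAJC1, a membrane J protein that faces HSPA5, had the higher mean in KD embryos at both stages without passing at either: it stood at 8.32, 6.77 and 10.1 FPKM in KD morulae, against 7.18, 4.37 and 5.64 FPKM in NC morulae, and at 9.28 and 10.9 FPKM in KD 8/16-cell embryos, against 5.96 and 8.32 FPKM in NC 8/16-cell embryos. DNAJC10, a J protein that also reduces disulfide bonds, stood at 14.3, 13.4 and 13.9 FPKM in KD morulae, against 16.5, 14.7 and 17.7 FPKM in NC morulae, and at 21.1 and 16.4 FPKM in KD 8/16-cell embryos, against 14.0 and 15.6 FPKM in NC 8/16-cell embryos, with KD below NC in morulae and above it in 8/16-cell embryos, neither of which passed (differences -0.21, SE 0.15, and 0.31, SE 0.19). Of the other 5 genes of this compartment, DNAJB11, DNAJC14 and HSPA13 were lower and DNAJC16 and DNAJC18 higher in KD morulae by group means, with differences of -0.30 to 0.40, and none passed with or without the block.

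In mitochondria, HSPD1 and HSPE1 showed the widest gaps. They encode the chaperonin barrel and its lid, and are neighbouring genes on chromosome 2 of the ARS-UCD2.0 assembly. HSPD1 stood at 89.9, 41.8 and 36.2 FPKM in KD morulae, against 135, 149.5 and 124 FPKM in NC morulae. KD morula replicate 1 was more than 2 times the other KD morulae, and the groups did not overlap (difference -1.38, SE 0.28, adjusted p = 0.0562, paired adjusted p = 0.00859). HSPE1 stood at 292, 112 and 110.3 FPKM in KD morulae, against 454, 302 and 424 FPKM in NC morulae, with the same library highest among the KD morulae and again no overlap (difference -1.33, SE 0.34, adjusted p = 0.0739, paired adjusted p = 0.00901). At the earlier stage HSPD1 stood at 36.0 and 39.6 FPKM in KD 8/16-cell embryos, against 32.7 and 35.1 FPKM in NC 8/16-cell embryos, and HSPE1 at 196 and 143 FPKM in KD 8/16-cell embryos, against 172 and 169.5 FPKM in NC 8/16-cell embryos, so the groups overlapped for HSPE1 and KD was slightly the higher group for HSPD1. The level of HSPE1 was 2.68 to 3.24 times that of HSPD1 in KD morulae and 2.02 to 3.43 times in NC morulae, against 3.60 to 5.43 times in KD and 4.83 to 5.24 times in NC 8/16-cell embryos. The morula ratios gave an exact permutation p of 1.0.

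Between the stages, the differences (morula minus 8/16-cell) in KD embryos were 0.44 (SE 0.31) for HSPD1 and -0.12 (SE 0.38) for HSPE1, which did not pass. In NC embryos HSPD1 rose by 1.97 (SE 0.31) and HSPE1 by 1.18 (SE 0.38) (adjusted p = 0.00184 and 0.0393). The difference between those changes did not pass for HSPD1 (-1.53, SE 0.44, adjusted p = 0.476) or for HSPE1 (-1.30, SE 0.54, adjusted p = 0.508). HSPA9 (mortalin), the HSP70 of the matrix that pulls in proteins during import, stood at 188, 165 and 153 FPKM in KD morulae, against 232, 224 and 200.4 FPKM in NC morulae, without overlap but also without passing (difference -0.37, SE 0.16, adjusted p = 0.209, paired adjusted p = 0.0687). Before that stage it measured 125 and 112 FPKM in KD 8/16-cell embryos, against 126 and 104 FPKM in NC 8/16-cell embryos, and it rose by the morula stage in NC embryos (0.92, SE 0.18, adjusted p = 0.004).

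DNAJC15 and DNAJC19 sit at the inner membrane, where such J proteins drive HSPA9. DNAJC15 stood at 45.2, 47.4 and 48.6 FPKM in KD morulae, against 63.5, 58.5 and 86.9 FPKM in NC morulae, with KD below NC (difference -0.53, SE 0.21, adjusted p = 0.192). Its earlier levels were 66.4 and 38.9 FPKM in KD 8/16-cell embryos, against 36.8 and 41.3 FPKM in NC 8/16-cell embryos, where KD replicate 1 was the highest of the 4. DNAJC30, a J protein tied to the respiratory chain, stood at 17.3, 15.8 and 13.6 FPKM in KD morulae, against 19.4, 14.2 and 17.0 FPKM in NC morulae, and at 12.3 and 12.9 FPKM in KD 8/16-cell embryos, against 20.1 and 14.8 FPKM in NC 8/16-cell embryos, with the 8/16-cell KD libraries below the NC ones (difference -0.42, SE 0.22). DNAJC19 averaged 15.8 ± 9.16 FPKM in KD and 30.1 ± 11.2 FPKM in NC morulae (SD, n = 3 each), with overlapping ranges. Of the 10 mitochondrial genes 8 were lower in KD morulae, or 7 with median ratio scaling and with equal sums that leave out MIR2887-1, MIR2887-2 and RN18S1. In NC embryos 6 of the 10 rose between the stages and none fell: HSPD1, HSPE1, HSPA9, DNAJC15, DNAJC11 and DNAJA3. Of all genes 12.6% rose and 18.2% fell there. The rises of HSPE1, DNAJC15 and DNAJA3 did not pass with no filter on low values, nor without NC morula replicate 1 or 3. DNAJA3, a J protein partner of HSPA9, and DNAJC11, a J protein of the mitochondrial membranes, rose in KD embryos as well, by 0.75 (SE 0.20) and 0.68 (SE 0.18). Without KD 8/16-cell replicate 2 the difference of DNAJA3 was 0.49 and did not pass.

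**Figure D3:**
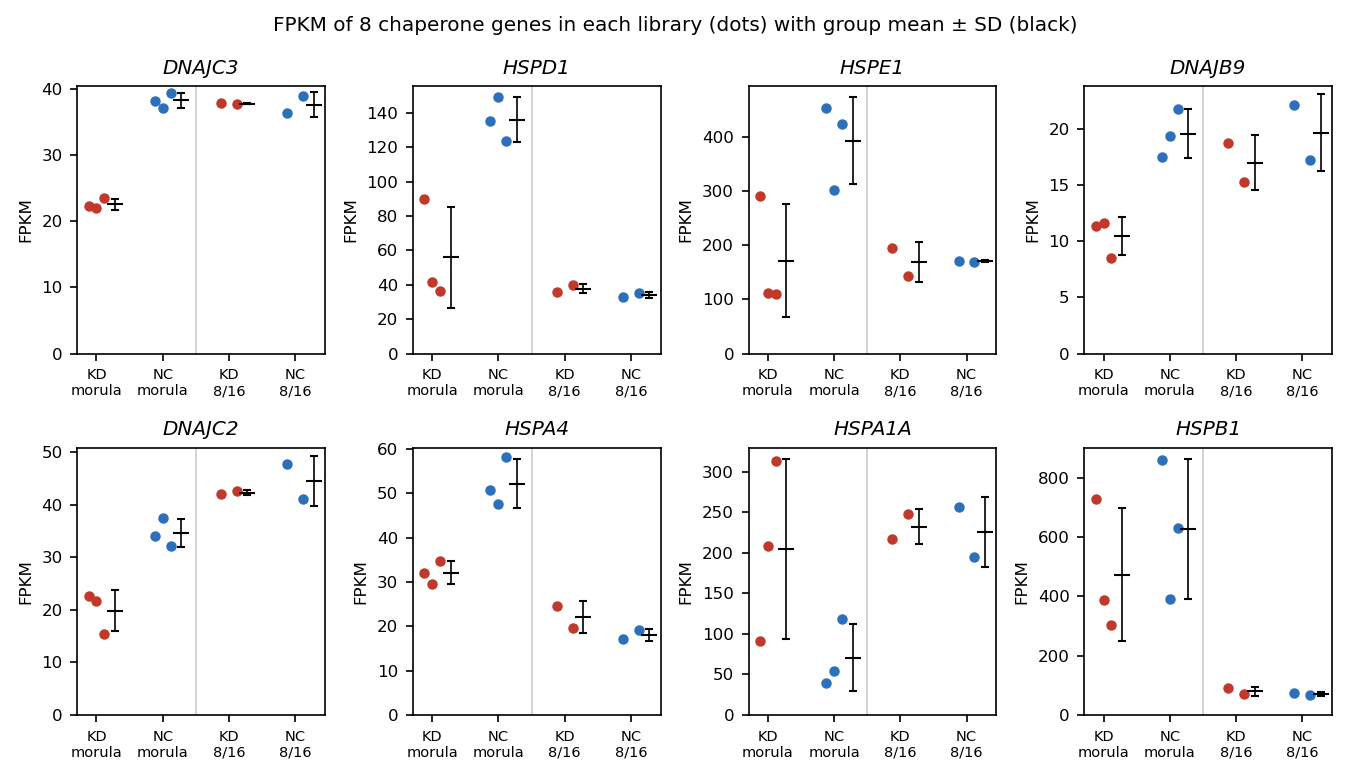
FPKM of 8 chaperone genes in each library (dots, vertical axis from 0) with the mean and SD of each group (black), KD left of NC, morulae left of 8/16-cell embryos. In the DNAJC3, HSPD1, HSPE1, DNAJB9, DNAJC2 and HSPA4 panels the KD morulae lie below the NC morulae, while for HSPA1A the lowest KD morula, at 91.2 FPKM, lies below the highest NC morula, at 118 FPKM.

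HSPA1A, the stress-inducible cytosolic HSP70, was higher in KD morulae. It stood at 91.2, 208 and 314 FPKM in KD morulae, against 40.1, 54.2 and 118 FPKM in NC morulae. The groups overlapped, since NC morula replicate 3 exceeded KD morula replicate 1, but within the same-numbered pairs KD was 2.28, 3.85 and 2.66 times NC. The gene passed with the block and not without it (difference 1.498, SE 0.45, adjusted p = 0.106, paired adjusted p = 0.00368). Its levels on day 4 were 217 and 248 FPKM in KD 8/16-cell embryos, against 256 and 195 FPKM in NC 8/16-cell embryos, with KD libraries inside the range of the NC libraries. Between the stages the difference in KD embryos was -0.35 (SE 0.51) and did not pass, while HSPA1A fell in NC embryos (-1.80, SE 0.51, adjusted p = 0.0221). The NC fall did not pass with no filter, nor without NC morula replicate 1 or 2. The difference between the treatments did not pass (1.45, SE 0.71, adjusted p = 0.549). RefSeq lists HSPA1B as another name of HSPA1A in cattle, so reads of a near-identical copy may count here and its level is uncertain. HSPA1L, its neighbour on chromosome 23, averaged 1.19 ± 0.398 FPKM in KD and 0.858 ± 0.214 FPKM in NC morulae.

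HSPA8 is the constitutive counterpart of HSPA1A. It stood at 1127, 1047 and 1389 FPKM in KD morulae, against 1059, 945 and 1110.0 FPKM in NC morulae, with overlapping ranges (difference 0.19, SE 0.21, adjusted p = 0.649). Its levels on day 4 were 878 and 797 FPKM in KD 8/16-cell embryos, against 915 and 646 FPKM in NC 8/16-cell embryos. HSPA2, an HSP70 best known from the testis, fell between the stages in NC embryos: it stood at 21.7, 30.0 and 29.8 FPKM in KD morulae, against 24.4, 21.1 and 22.7 FPKM in NC morulae, and at 37.6 and 41.8 FPKM in KD 8/16-cell embryos, against 55.4 and 46.0 FPKM in NC 8/16-cell embryos (-1.12, SE 0.19, adjusted p = 0.00227). In the 8/16-cell embryos KD was the lower group and in the morulae the ranges overlapped. HSPA14, the HSP70 that sits with DNAJC2 on the human ribosome, went up with stage. It stood at 12.99, 15.0 and 11.2 FPKM in KD morulae, against 15.5, 16.0 and 18.7 FPKM in NC morulae, and at 7.94 and 6.79 FPKM in KD 8/16-cell embryos, against 4.38 and 8.21 FPKM in NC 8/16-cell embryos, and it rose in NC embryos (1.33, SE 0.24, adjusted p = 0.00303). The KD morulae lay below the NC ones without passing (difference -0.34, SE 0.21). HSPA6, known in humans as strictly inducible, stood at 2.90, 5.66 and 3.01 FPKM in KD morulae, against 2.77, 3.75 and 4.20 FPKM in NC morulae, and at 0.0838 and 1.27 FPKM in KD 8/16-cell embryos, against 0.589 and 1.18 FPKM in NC 8/16-cell embryos. It rose between the stages in both treatments, by 1.58 (SE 0.36) in KD and 1.28 (SE 0.36) in NC embryos (adjusted p = 0.0146 and 0.0215). Without KD 8/16-cell replicate 1 the KD difference was 1.05 and did not pass, nor did it pass with the compared groups alone. The NC rise did not pass with a pseudocount of 0.1, with no filter or without NC morula replicate 3.

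Exchange factors release ADP from HSP70 so that the client is let go. HSPA4, one of the HSP110 kind, stood at 32.1, 29.6 and 34.8 FPKM in KD morulae, against 50.8, 47.5 and 58.3 FPKM in NC morulae. The groups did not overlap and the gene passed with the block alone (difference -0.68, SE 0.15, adjusted p = 0.0624, paired adjusted p = 0.0214), with KD at 0.632, 0.622 and 0.597 times NC in the 3 pairs. HSPA4 on day 4 measured 24.6 and 19.6 FPKM in KD 8/16-cell embryos, against 17.1 and 19.1 FPKM in NC 8/16-cell embryos, with KD the higher group. It rose between the stages in NC embryos by 1.47 (SE 0.17) (adjusted p = 0.000478), the smallest adjusted p among the 71 genes in that comparison, and its difference between treatments in stage change, -0.94 (SE 0.24), did not pass (adjusted p = 0.435). HSPH1, a relative of HSPA4, stood at 17.6, 11.3 and 14.1 FPKM in KD morulae, against 13.6, 16.4 and 12.97 FPKM in NC morulae, and at 24.2 and 22.5 FPKM in KD 8/16-cell embryos, against 20.3 and 20.7 FPKM in NC 8/16-cell embryos. Its morula groups overlapped closely (difference -0.01, SE 0.18). HSPBP1, an exchange factor of another fold, stood at 40.8, 36.8 and 37.9 FPKM in KD morulae, against 34.0, 22.4 and 25.1 FPKM in NC morulae, without overlap and passing with the block alone (difference 0.51, SE 0.17, adjusted p = 0.125, paired adjusted p = 0.0474). On day 4 HSPBP1 stood at 58.5 and 60.2 FPKM in KD 8/16-cell embryos, against 57.4 and 55.8 FPKM in NC 8/16-cell embryos. It fell by the morula stage in KD embryos (-0.61, SE 0.19) and in NC embryos (-1.05, SE 0.19).

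HSP90AA1 and HSP90AB1 encode the inducible and the constitutive cytosolic HSP90. HSP90AA1 stood at 346, 316 and 359 FPKM in KD morulae, against 395, 399 and 460.3 FPKM in NC morulae, with the KD morulae below the NC ones (difference -0.29, SE 0.16, adjusted p = 0.321). HSP90AB1 stood at 97.6, 52.8 and 41.1 FPKM in KD morulae, against 159, 80.2 and 93.1 FPKM in NC morulae, with overlap between the groups but KD lower in each pair (difference -0.82, SE 0.32, adjusted p = 0.186, paired adjusted p = 0.0129). On day 4 HSP90AA1 stood at 261 and 317 FPKM in KD 8/16-cell embryos, against 245 and 263 FPKM in NC 8/16-cell embryos, and HSP90AB1 at 63.8 and 48.7 FPKM in KD 8/16-cell embryos, against 43.3 and 38.4 FPKM in NC 8/16-cell embryos. In these embryos KD was the higher group for HSP90AB1, without passing. Neither passed between the stages in KD embryos (0.24, SE 0.18, and 0.10, SE 0.36), and both rose in NC embryos, HSP90AA1 by 0.71 (SE 0.18) and HSP90AB1 by 1.35 (SE 0.36) (adjusted p = 0.0145 and 0.0178). HSP90AA1 exceeded HSP90AB1 in each of the 10 libraries, by 2.48 to 8.72 times.

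HSPB1, a small heat shock protein that also steadies actin filaments, changed most between the stages. It stood at 726, 388 and 304 FPKM in KD morulae, against 860.0, 389.8 and 629.5 FPKM in NC morulae, and at 91.4 and 69.5 FPKM in KD 8/16-cell embryos, against 74.7 and 67.1 FPKM in NC 8/16-cell embryos. The rise was 2.45 (SE 0.39) in KD and 3.05 (SE 0.39) in NC embryos (adjusted p = 0.00331 and 0.000656), with no overlap between the stages in either. In morulae the treatments overlapped widely (difference -0.43, SE 0.34, adjusted p = 0.493). HSPB3, a small heat shock protein of muscle, stood at 0.728, 0.161 and 0.436 FPKM in KD morulae, against 2.13, 2.47 and 3.30 FPKM in NC morulae, below 1 FPKM in each KD morula and above 2 FPKM in each NC morula, without passing (difference -1.34, SE 0.39, adjusted p = 0.0953, paired adjusted p = 0.0693). On day 4 it was listed at 0 and 0.898 FPKM in KD and 2.75 and 0.343 FPKM in NC libraries. HSPB9, a testis gene, was the 1 chaperone gene of 71 with an unadjusted p under 0.05 at the 8/16-cell stage. HSPB9 measured 2.30 and 1.27 FPKM in KD 8/16-cell embryos, against 0.247 and 0.277 FPKM in NC 8/16-cell embryos (difference 1.12, SE 0.48, adjusted p = 1.0), and at 0.993, 1.003 and 2.14 FPKM in KD morulae, against 2.29, 0.828 and 0 FPKM in NC morulae, where the groups overlapped. HSPB6 averaged 1.70 ± 0.176 FPKM in KD and 1.29 ± 0.0796 FPKM in NC morulae.

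The cytosolic chaperonin has a ring of 8 different subunits, TCP1 and 7 CCT proteins, all of which were tested. Their summed level was 1267, 1091 and 1071 FPKM in KD morulae and 1393, 1120.0 and 1494 FPKM in NC morulae (two-sided exact permutation p = 0.2 with the libraries unpaired, smallest possible 0.1), and again lower in KD in each pair. In 8/16-cell embryos the sum was 1268 and 1154 FPKM in KD and 1196 and 1104 FPKM in NC libraries (exact permutation p = 0.667, smallest possible 0.333). All 8 subunits had lower KD means in morulae, with CCT7 at -0.02 (SE 0.16) and above 0 under each other scaling. CCT2 stood at 83.0, 57.9 and 62.4 FPKM in KD morulae, against 108, 83.1 and 122.9 FPKM in NC morulae, and CCT6A at 67.7, 57.3 and 36.6 FPKM in KD morulae, against 91.2, 81.8 and 81.1 FPKM in NC morulae. These were the 2 subunits that passed with the block (CCT2 -0.62, SE 0.19, adjusted p = 0.109, paired adjusted p = 0.0307, and CCT6A -0.69, SE 0.21, adjusted p = 0.111, paired adjusted p = 0.029), and with CCT4 the 3 without overlap, against 15.3% of all genes lower without overlap. Without KD morula replicate 3 the difference of CCT6A was -0.44. Earlier, CCT2 stood at 60.7 and 53.8 FPKM in KD 8/16-cell embryos, against 50.7 and 48.7 FPKM in NC 8/16-cell embryos, and CCT6A at 74.5 and 63.0 FPKM in KD 8/16-cell embryos, against 75.1 and 67.5 FPKM in NC 8/16-cell embryos. TCP1 stood at 132, 113 and 112 FPKM in KD morulae, against 152, 114 and 157 FPKM in NC morulae, and at 187 and 164 FPKM in KD 8/16-cell embryos, against 151 and 149.5 FPKM in NC 8/16-cell embryos, with overlap in morulae and KD above NC in 8/16-cell embryos. Between stages in NC embryos CCT2 rose by 1.04 (SE 0.21) and CCT8 by 0.55 (SE 0.19) (adjusted p = 0.00528 and 0.0464), and the other 6 did not pass. The highest subunit exceeded the lowest by 4.18 to 5.82 times in KD morulae and by 2.67 to 3.49 times in NC morulae.

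The J proteins of the cytosol and nucleus hand clients to HSPA8 and HSPA1A. DNAJB1, the heat-inducible one, stood at 48.5, 77.2 and 75.6 FPKM in KD morulae, against 42.2, 44.5 and 50.4 FPKM in NC morulae. The ranges overlap (difference 0.52, SE 0.22, adjusted p = 0.21). DNAJB1 measured 95.9 and 146 FPKM in KD 8/16-cell embryos, against 147 and 128 FPKM in NC 8/16-cell embryos on day 4, and it fell by the morula stage in KD embryos (-0.84, SE 0.24, adjusted p = 0.0367) and in NC embryos (-1.57, SE 0.24, adjusted p = 0.00163). The KD fall did not pass under any other scaling, nor without KD 8/16-cell replicate 2 (-0.54). Its relative DNAJB4 stood at 1.07, 2.44 and 1.88 FPKM in KD morulae, against 1.11, 1.12 and 1.66 FPKM in NC morulae, and at 3.92 and 5.94 FPKM in KD 8/16-cell embryos, against 3.84 and 3.39 FPKM in NC 8/16-cell embryos, and fell in both treatments, with differences of -1.09 (SE 0.27) in KD and -1.01 (SE 0.27) in NC embryos. DNAJA1, a constitutive J protein, stood at 179, 170.2 and 189 FPKM in KD morulae, against 191, 209 and 211 FPKM in NC morulae, and at 126 and 148 FPKM in KD 8/16-cell embryos, against 149.6 and 129.9 FPKM in NC 8/16-cell embryos, and it rose with stage in NC embryos (0.54, SE 0.17, adjusted p = 0.0316). DNAJB6, which keeps aggregation-prone proteins soluble, averaged 168 ± 12.51 FPKM in KD and 160.3 ± 29.3 FPKM in NC morulae. None of the 10 tested genes of this role passed between KD and NC at either stage, with or without the block.

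The specialised J proteins work at fixed places in the cell. DNAJC2, which sits on the ribosome at the exit of the new chain, stood at 22.6, 21.6 and 15.4 FPKM in KD morulae, against 34.1, 37.5 and 32.2 FPKM in NC morulae. The groups did not overlap, and the gene passed with the block alone (difference -0.79, SE 0.17, adjusted p = 0.0617, paired adjusted p = 0.0132). DNAJC2 measured 42.0 and 42.6 FPKM in KD 8/16-cell embryos, against 47.8 and 41.2 FPKM in NC 8/16-cell embryos on day 4. It fell between the stages in KD embryos (-1.07, SE 0.19, adjusted p = 0.00538) and did not pass in NC embryos (-0.35, SE 0.19). DNAJC27, a J protein with a GTPase domain, stood at 1.90, 2.55 and 1.88 FPKM in KD morulae, against 1.35, 1.73 and 1.14 FPKM in NC morulae, and at 3.46 and 4.52 FPKM in KD 8/16-cell embryos, against 3.28 and 3.82 FPKM in NC 8/16-cell embryos, and fell in NC embryos (-0.93, SE 0.22, adjusted p = 0.0116). DNAJC21, known for its part in making the large ribosomal subunit, stood at 9.45, 8.92 and 12.4 FPKM in KD morulae, against 10.4, 11.3 and 12.9 FPKM in NC morulae, and at 33.1 and 18.0 FPKM in KD 8/16-cell embryos, against 17.3 and 18.3 FPKM in NC 8/16-cell embryos, with KD 8/16-cell replicate 1 well above the other 3 libraries of its stage. DNAJC21 fell in KD embryos (-1.19, SE 0.25), but without that library the difference was -0.77 and did not pass, nor did it pass with equal FPKM sums. DNAJC6, which strips clathrin from vesicles, also fell in KD embryos (-0.83, SE 0.21), but did not pass with median ratio scaling or equal FPKM sums. DNAJC9, a co-chaperone of histones H3 and H4, averaged 3.88 ± 0.185 FPKM in KD and 4.73 ± 1.16 FPKM in NC morulae, with a difference of -0.21 (SE 0.31) and an adjusted p of 0.731.

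HSF1 stood at 54.4, 55.8 and 46.3 FPKM in KD morulae, against 54.1, 43.5 and 50.2 FPKM in NC morulae, and at 73.0 and 66.5 FPKM in KD 8/16-cell embryos, against 81.5 and 64.0 FPKM in NC 8/16-cell embryos. The treatments overlapped at both stages (differences 0.08, SE 0.16, and -0.05, SE 0.20). Between the stages the difference in KD embryos was -0.41 (SE 0.18) (adjusted p = 0.121), while HSF1 fell in NC embryos (-0.55, SE 0.18, adjusted p = 0.0398), a call lost in 10 of 19 alternative settings. Among its targets in the heat response of other mammals, HSPA1A, DNAJB1 and HSPH1 had a lower mean in NC morulae than in NC 8/16-cell embryos, whereas HSPB1, HSPD1, HSPE1 and HSP90AA1 had a higher one.

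At the 8/16-cell stage no chaperone gene of the 71 passed between KD and NC, with or without the replicate block, against 0.017% of all genes (0.0255% with the block). The limma adjusted p was 1.0 for all 71, and 1 gene, HSPB9, had an unadjusted p under 0.05 (514 of all 11761 genes). KD lay above NC without overlap for 19 genes and below it for 5, against 19.3% and 13.9% of all genes. The difference was above 0 for 40 of the 71 genes, against 52.1% of all genes, and its median was 0.04 for the 71 genes and 0.01 for all genes. With the libraries scaled to an equal FPKM sum the medians became -0.33 and -0.32, and 65 of the 71 genes then had lower KD means. The cumulus and granulosa markers summed to 117 to 122 FPKM in KD and 73.8 to 74.1 FPKM in NC 8/16-cell embryos, and the oocyte markers to 132 to 175 and 143 to 229 FPKM. Within the cumulus list VIM and CYP11A1 were higher in KD without overlap, while HAS2, COL1A1, AMH and STAR, among others, had lower KD means. The embryo markers summed to 379 to 417 FPKM in KD and 400.3 to 590 FPKM in NC 8/16-cell embryos. SOX2, KRT18, GATA3 and TEAD4 were lower in KD without overlap, and the other embryo markers overlapped. The part of these levels in the differences was not tested.

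The difference between the KD effects of the 2 stages did not pass for any of the 71 genes by limma, with or without the block, while 0.017% of all genes passed without it and 0.272% with it. Unadjusted p-values were under 0.05 for 9 of them, HSPA4, DNAJC3, HSPD1, CCT2, DNAJC2, DNAJC15, HSP90AB1, HSPE1 and DNAJB9 (12.7%, against 9.39% of all genes). DNAJC3 had -0.74 (SE 0.20) (adjusted p = 0.439). That genes passed in morulae and not in 8/16-cell embryos is therefore not shown to differ between the stages.

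Between the stages, 4 of the 71 genes rose and 11 fell in KD embryos by the morula stage (21.1%), against 20% of all genes (5.22% higher and 14.8% lower). In NC embryos 17 rose and 7 fell (33.8%), against 30.8% of all genes (12.6% higher and 18.2% lower). The 7 genes that passed in both were HSPB1, HSPA6, DNAJA3 and DNAJC11, which rose, and DNAJB1, DNAJB4 and HSPBP1, which fell. Passing in KD and not in NC embryos were 8 genes, all lower in morulae: DNAJB9, DNAJC2, DNAJC3, DNAJC6, DNAJC21, DNAJC25, HSPB11 and HSPH1. None of these 8 falls passed with equal FPKM sums. Those of DNAJB9, DNAJC25 and HSPH1 did not pass with no filter, with median ratio scaling or with the compared groups alone either. HSPB11, an intraflagellar transport protein in spite of its name (IFT25 in RefSeq), averaged 0.633 ± 0.209 FPKM in KD morulae and 4.02 ± 1.04 FPKM in KD 8/16-cell embryos (-1.61, SE 0.34). Another 17 passed in NC and not in KD embryos, and 39 in neither. The difference between the stage changes of the 2 treatments is the one tested above, which none of the 71 genes passed.

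How the libraries were scaled decided which genes passed between the stages in KD embryos, while no named gene that passed there changed direction. The median of all genes there was -0.18 as deposited, -0.01 with median ratio scaling and 0.21 with equal FPKM sums. The 4 rises and 11 falls became 9 rises and 5 falls with median ratio scaling (8.44% and 7.72% of all genes), 11 rises and 0 falls with equal sums (9.11% and 2.19% of all genes), and 7 rises and 3 falls with equal sums that leave out MIR2887-1, MIR2887-2 and RN18S1 (5.95% and 5.43% of all genes). In KD embryos the 15 calls became 6 without KD 8/16-cell replicate 1 and 4 without replicate 2 (6.71% and 5.89% of all genes), and 8 and 9 without KD morula replicates 1 and 2 (9.11% and 12.8% of all genes). In NC embryos the 24 calls came down to 10 when either NC 8/16-cell library was left out, where 12% and 14.1% of all genes passed (HSPB1, HSPD1, HSPA4, HSPA9, HSPA14, DNAJB12 and CCT2 higher, DNAJB1, HSPA2 and HSPBP1 lower, the same 10 each time). For the 81 symbols on several lines, none of them a chaperone gene, the 8/16-cell columns repeat 1 value per symbol while the morula columns do so for 13 to 20 symbols, so the columns of the 2 stages were filled in differently and the stage comparisons carry any such difference.

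**Figure D4:**
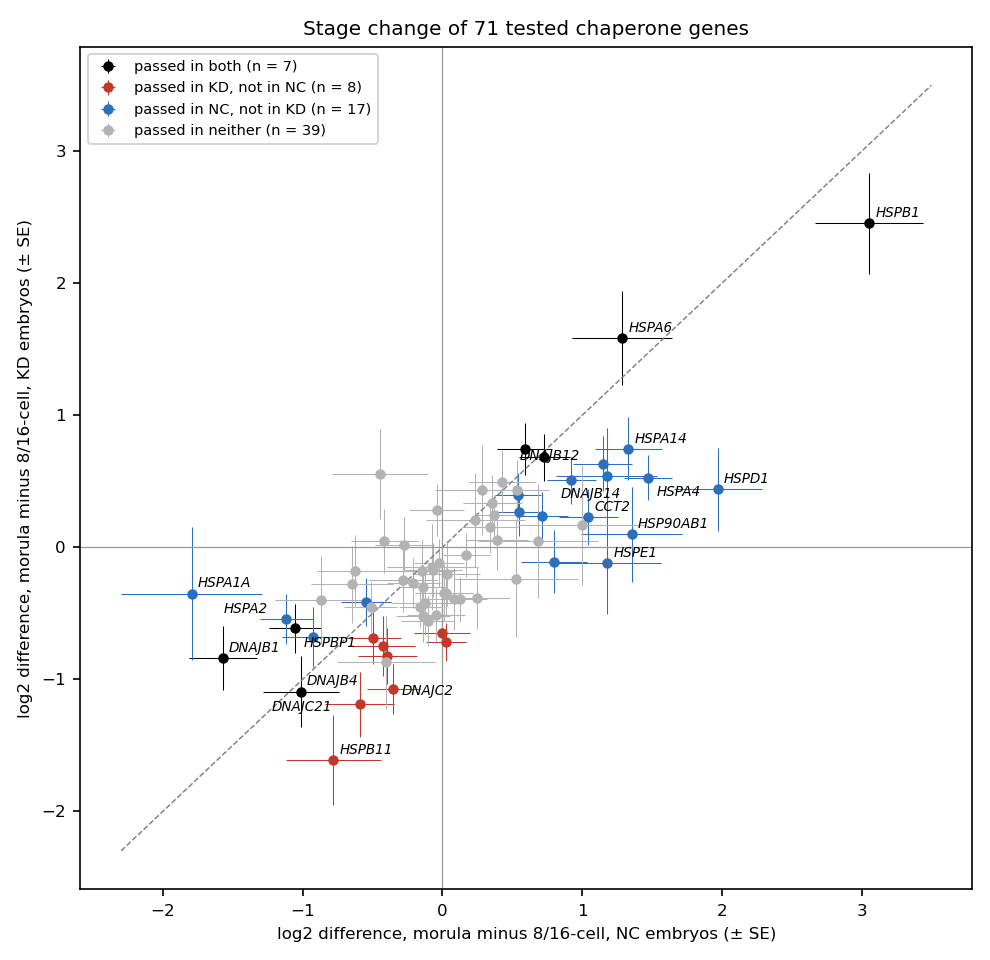
Stage change of the 71 tested genes in KD embryos (vertical axis) and NC embryos (horizontal axis), each as log2 difference, morula minus 8/16-cell, with bars of 1 SE and a dashed line of equal change. HSPB1 lies at the upper right, HSPD1, HSPE1 and HSP90AB1 lie right of the dashed line, and the 8 genes that passed in KD and not in NC embryos lie below 0 on the vertical axis.

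Other genes of the folding machinery were counted in 7 lists. Without the block none of their 98 tested genes passed in limma between KD and NC at either stage, with 23 at an unadjusted p under 0.05 in morulae and 4 in 8/16-cell embryos (23.5% and 4.08%, against 21.2% and 4.37% of all genes). With the block 8% of all genes fell and 3.89% rose in morulae, 0% passed without pair 1 and 0.153% without pair 3. The counts of calls in the lists below are from that block fit with all 3 pairs, while each SE is from the fit without the block. With the block at the morula stage 4 of 15 prefoldins, phosducin-like proteins and tubulin folding cofactors fell and none rose, led by the cofactor TBCA, which handles tubulin after the chaperonin (-0.88, SE 0.27, limma paired adjusted p = 0.012), PFDN2 (-0.73, SE 0.23, paired adjusted p = 0.036) and PFDN4 (-0.64, SE 0.21, paired adjusted p = 0.0393). Prefoldin, to which both PFDN genes belong, brings actin and tubulin to the chaperonin. Of the 15 mitochondrial proteases and helpers 3 fell, the protease LONP1 (-0.88, SE 0.20, paired adjusted p = 0.00699), HTRA2 (-0.69, SE 0.17, paired adjusted p = 0.0301) and the iron-sulfur helper HSCB (-0.997, SE 0.27, paired adjusted p = 0.0153). In the list for endoplasmic reticulum folding and the unfolded protein response, with 23 of 24 tested, 4 fell and 3 rose. The lectin chaperone CANX (-0.72, SE 0.18) and the oxidase ERO1A (-1.25, SE 0.32) were lower and the stress transcription factor ATF4 higher (0.64, SE 0.18). BAG2 (-0.81, SE 0.21) and BAG1 (-0.66, SE 0.20) fell among 11 exchange factors and BAG proteins, and FKBP8 (-0.58, SE 0.24) among 18 HSP90 co-chaperones. Of the tubulins and actins, with 14 of 16 tested, TUBA4A rose (0.93, SE 0.32) and 1 other fell, and neither the heat shock factor HSF2 nor HSBP1, whose protein binds HSF1, passed.

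Between the stages in KD embryos the falls outnumbered the rises in each list with a call (2 rose and 3 fell, 1 and 2, 0 and 3, 0 and 4, 0 and 3, and 1 and 2, in the order of co-chaperones, exchange factors, prefoldins and cofactors, tubulins and actins, endoplasmic reticulum and mitochondria), as among all genes (5.22% higher and 14.8% lower), with the limit on scaling given above. In NC embryos these lists moved both ways, except that among the exchange factors and BAG proteins 0 rose and 2 fell. None of the other heat shock factors passed. ACTG1, a cytoplasmic actin, rose by 2.03 (SE 0.39) while 5 of the 14 tubulins and actins fell, among them TUBA4A (-1.91, SE 0.35) and TUBA1A (-1.22, SE 0.27). In the endoplasmic reticulum list 4 rose and 4 fell, with CANX higher (1.17, SE 0.20) and the stress factors DDIT3 (-2.33, SE 0.41) and ATF6B (-0.83, SE 0.18) lower. HTRA2 (1.37, SE 0.19) and PMPCB (1.58, SE 0.29), which cut proteins in mitochondria, rose and 2 others of that list fell. Among the HSP90 co-chaperones 3 rose, with AHSA2 at 1.08 (SE 0.26), and 2 fell, PTGES3 (-0.74, SE 0.18) and TTC4 (-0.84, SE 0.21). Of the prefoldins and tubulin cofactors 3 rose, with PFDN4 and TBCA at 0.999 (SE 0.23) and 1.10 (SE 0.30), and PDRG1 fell (-0.82, SE 0.20), while GRPEL2 (-0.71, SE 0.22) and BAG2 (-0.76, SE 0.24) fell among the exchange factors.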

How the data were processed

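Messenger RNA of injected bovine embryos was captured on oligo(dT) beads, and libraries were prepared by the NEBNext Ultra kit, per the labels' protocols. The deposited values are FPKM, a level per transcript length and per library, in a table of 39911 lines by 10 libraries. The submitters' processing notes name Trimmomatic, HISAT2, featureCounts and Cufflinks and the builds ARS-UCD1.2 and bosTau9, without versions or roles. No counts were analysed, so reads per value are unknown, and whether strand was kept is not given in the sources used here. Since FPKM divides by the library's total, changes are relative to other transcripts.

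Treatment, stage and replicate in each column's name gave its sample, with 0 columns left over. The 81 symbols on several lines (11211 lines, no chaperone gene) were left out. Names and neighbours came from RefSeq's ARS-UCD2.0 annotation, which holds 84 of the 85 symbols, and no coordinates were taken. Limma 3.58.1 (R 4.3.3, limma-trend) was fitted to log2(FPKM + 1) of the 11761 genes that averaged 1 FPKM or more over the 10 libraries, with 4 group means (6 residual and 4.63 prior degrees of freedom) and two-sided p-values adjusted by Benjamini-Hochberg over all genes tested. Single sums and ratios were compared by exact permutation of libraries.

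As a check of the pairing, each library's deviation from its group mean was correlated over the tested genes. Morula libraries with the same number gave r = 0.37, 0.325 and 0.312, so the numbers were taken to pair them, from the data and not from a label. At the 8/16-cell stage r was 0.0558.

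The gene families, roles and 7 lists were chosen with earlier results of these data known. Named with all their values were members that passed between KD and NC, the 10 smallest p at each stage, the 10 largest rises and falls that passed between NC stages, and 16 fixed members. Other lists name up to 3 genes by smallest p. Alternatives were a pseudocount of 0.1, no filter or a mean of at least 5 FPKM, 2 scalings, the compared groups alone, the replicate block and leaving out each library. Chosen after seeing the data were equal sums without MIR2887-1, MIR2887-2 and RN18S1, RN18S1 as a covariate, and the block without each morula pair.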

Additional observations from a re-analysis of the deposited data

How the results depend on the processing

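Of 51 differences named for single chaperone genes, recomputed under the alternatives (988 values), 817 kept their direction and side of the threshold, 148 no longer passed, 17 newly passed and 6 changed sign. The 6 were, in 8/16-cell embryos, DNAJC10 (-0.07), HSPA5 (-0.14), DNAJC15 (-0.02) and HSPA4 (-0.12) with equal FPKM sums, HSPB3 (0.04) without NC replicate 1 and DNAJC15 (-0.01) without KD replicate 1. Leaving out single libraries gave -1.44 to 0.04 for HSPB3 and -0.01 to 0.75 for DNAJC15, and moved 6 other 8/16-cell differences, none of which passed, by over 1.5 times: DNAJC30 (-0.64 to -0.21), DNAJC1 (0.24 to 0.67), HSPA2 (-0.47 to -0.21), DNAJC10 (0.14 to 0.48), DNAJC21 (0.01 to 0.86) and HSPA4 (0.11 to 0.42). With equal sums the median of all genes there moved to -0.32, against 0.01 as deposited, so these 4 lay above it.

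The count of chaperone genes that passed between KD and NC morulae was 1 as reported. It was 0 with no filter, with equal FPKM sums, with median ratio scaling, with the compared groups alone, with equal sums without MIR2887-1, MIR2887-2 and RN18S1, and with RN18S1 as a covariate, and 4 with a mean of at least 5 FPKM. With the replicate block it was 12, and with the block and without morula replicate 1, 2 or 3 it was 0, 3 or 0. Leaving out single libraries gave 0 to 6. DNAJC3 kept its direction under all 22 alternatives (-0.80 to -0.65), with adjusted p from 0.0105 to 0.303. The 8/16-cell comparison and the difference between stages gave 0 under each alternative with a value.

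Between the stages, the 15 calls in KD embryos ranged from 4 to 21 when a library was left out, and the 24 in NC embryos from 10 to 23. In KD embryos the count was 10 with no filter, 9 with the compared groups alone, 10 with equal sums without the 3 named genes and 8 with RN18S1 as a covariate. With the replicate number as a block across the stages, where the pairs are not shown to match (r = 0.0361 to 0.15), 18 passed in KD (30% of all genes) and 27 in NC embryos (39% of all genes). HSPB1, HSPD1, HSPA4, HSPA14, DNAJB12, CCT2, DNAJB1, HSPA2 and HSPBP1 passed in NC embryos under all 19 alternatives, and HSPB1 in KD embryos as well. The cause of these shifts was not tested, and where a library is left out of a pair, the lone library is assumed to vary like the others. Genes near 1 FPKM, such as HSPB3, HSPB9 and DNAJB14, are the least precise.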
